A study of Mus musculus with 55 samples.

Results

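The dorsal hippocampus of 10 female mice lacking Cnih3, 4 taken in proestrus and 6 taken in estrus, was compared by bulk RNA sequencing. They make up 10 of the 55 libraries of a larger study, and were chosen by their labels for genotype (KO) and estrous stage. Each library came from 1 hippocampus of 1 adult mouse on a C57BL/6J background. All 10 mice carried the same homozygous deletion of Cnih3 exon 4, which shifts the reading frame, and received no treatment. Estrous stage, scored by vaginal cytology at collection, was the label that set the groups apart, and their ages also differed. The proestrus mice were 12_4, 12_5, 14_1 and 14_2, aged 13, 13, 14.57 and 13.57 weeks. The estrus mice were 12_1, 12_2, 12_3, 2593, 8_4 and 9_1, aged 13, 16.29, 16.29, 16.29, 20.71 and 20 weeks. The same 2 stages in wild-type (WT) females (5 proestrus and 7 estrus mice) served only as a comparator that shares no mouse with the KO comparison. They were aged 12 to 18.71 weeks in proestrus and 16.29 to 20.29 weeks in estrus. The KO is constitutive, and the tissue holds every cell type of the dissected region.

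Proestrus is the stage at which circulating estradiol reaches its peak, followed by the surge of luteinizing hormone and progesterone that leads to ovulation. In estrus both hormones have fallen. Estradiol acts in the hippocampus through nuclear receptors and through signaling at the membrane, and the density of dendritic spines on CA1 pyramidal cells is known to vary over the cycle. Cnih3 (cornichon homolog 3) is an auxiliary protein of AMPA-type glutamate receptors that helps them leave the endoplasmic reticulum and slows their gating.

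The libraries held 32817017 to 57963784 read counts in proestrus and 47373740 to 58799748 in estrus. Markers of hippocampal cells were present: 10 of 10 CA1, 10 of 10 dentate granule cell and 9 of 10 CA3 and CA2 markers passed the expression filter, and the mean log2 CPM (read counts scaled to the size of the library) of the CA1 markers ran from 4.95 to 5.42 in both stages. The mice in proestrus were younger, at 13.5 ± 0.74 weeks (SD, n = 4) against 17.1 ± 2.84 weeks (SD, n = 6), a difference of −3.56 weeks (exact two-sided permutation test, p = 0.0476 over 210 splits). Mouse 12_1, an estrus mouse as young as those in proestrus, had the lowest quality weight of the 10 (0.392, against 1.94 for 12_5), so it counted least in the fitted differences.

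Cnih3 itself did not separate the stages. Its read counts were 1817, 1718, 1277 and 1430 in proestrus (12_4, 12_5, 14_1, 14_2) and 1449, 1904, 1705, 1396, 1290 and 2248 in estrus. On the log2 CPM scale the proestrus mice ran from 4.81 to 5.58 and the estrus mice from 4.68 to 5.39, so that the groups overlapped over most of their range. The fitted difference was −0.02 ± 0.18 (log2 fold change ± SE, FDR = 0.97). Against WT, Cnih3 was −0.36 in KO proestrus (FDR = 0.395) and −0.36 in KO estrus (FDR = 0.332), differences that did not pass the test. Counts were summed over the whole gene, and reads from the exons other than exon 4 are still counted, so these values do not check the deletion.

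The question of the comparison is which hippocampal genes differ between proestrus and estrus in animals without Cnih3. In KO mice, 82 of 16168 genes (0.507% of the genes tested) differed between the stages at a false discovery rate (FDR) under 0.05, 58 of them higher in proestrus (0.359%) and 24 lower (0.148%). The changes were small. Among the higher genes the log2 fold change ran from 0.34 to 1.66 with a median of 0.51. Among the lower genes it ran from −0.26 to −1.43 with a median of −0.38. The genes at 1.66 and −1.43 were weakly expressed, with a mean log2 CPM over the 10 libraries of −0.19 and 0.25. That mean was 1 or less in 3 of the 82 genes. Only 5 of the 82 exceeded 1 on the log2 scale in either direction. In 52 of the 82, 39 higher and 13 lower, the values of the 4 proestrus mice did not overlap those of the 6 estrus mice, against 4.44% of all genes tested. The size of the list depended strongly on the model: edgeR's quasi-likelihood test called 4 genes and DESeq2 59, limma without the quality weights called 5, and leaving out single mice gave 3 (12_3 or 12_4) to 306 (8_4). In every one of these fits all 82 genes kept their direction. This was largely set in advance, since the 82 were chosen on these libraries and each fit reused all or most of them. Over the 10 fits that each left out 1 mouse, a called gene kept its call in a median of 4 and a range of 1 to 10.

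Cbx8, a chromobox subunit of Polycomb repressive complex 1, had the smallest FDR. Its log2 CPM was 3.53, 3.97, 3.82 and 3.92 in proestrus (12_4, 12_5, 14_1, 14_2) and 2.57, 2.54, 2.93, 2.81, 3.48 and 3.06 in estrus (12_1, 12_2, 12_3, 2593, 8_4, 9_1). Every proestrus mouse lay above every estrus mouse, with 8_4 the nearest. The log2 fold change was 0.87 ± 0.15 (FDR = 0.00472). It was the 1 gene of the 82 that stayed called whichever of the 10 mice was left out, and it was among the 4 genes that edgeR called (FDR = 0.0297).

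Nppc, which encodes C-type natriuretic peptide, had the largest rise among called genes with no overlap between the stages and a mean log2 CPM above 1. Its log2 CPM was 3.19, 3.14, 3.30 and 2.95 in proestrus and 1.61, 2.18, 1.76, 2.23, 2.11 and 2.63 in estrus. All 4 proestrus values were above the highest estrus value, that of 9_1. The log2 fold change was 1.07 ± 0.20 (FDR = 0.00927), a 2.10-fold difference, and it stayed called in 8 of the 10 fits that left out a mouse.

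Sh2b2, an adaptor of the insulin receptor and other tyrosine kinases, measured 2.07, 2.14, 1.69 and 1.70 in proestrus against 1.20, 1.22, 0.45, 0.99, 1.39 and 1.45 in estrus (log2 CPM). The groups were apart, with the lowest estrus value in 12_3, and the log2 fold change was 0.99 ± 0.20 (FDR = 0.017). Zfp688, a zinc finger gene, was tightly grouped in proestrus at 4.72, 4.60, 4.67 and 4.72, and spread from 3.56 to 4.31 in estrus. It rose by 0.66 ± 0.12 (FDR = 0.00496) and stayed called in 9 of 10 fits without a mouse. Tsc22d4, a member of the TSC22 domain family of transcriptional regulators, measured 7.25 to 7.36 in proestrus and 6.43 to 7.02 in estrus, where 8_4 was highest, and rose by 0.66 (FDR = 0.00927).

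The other rises of the 12 largest were Ube2t, a ubiquitin-conjugating enzyme of the Fanconi anemia pathway (0.86), C1qa, a chain of the complement component C1q made by microglia (0.81), Igsf8, a membrane protein that binds tetraspanins (0.70), Samd14 (0.61), Txndc15, a thioredoxin-domain protein (0.59), Ninj1, which mediates rupture of the plasma membrane in dying cells (0.58), and Lefty1, a secreted antagonist of Nodal signaling (0.57). Their FDRs ran from 0.017 to 0.0419, and without single mice Ube2t and Samd14 kept their call in 2 of 10 fits, C1qa and Igsf8 in 3, Ninj1 in 5, Lefty1 in 6 and Txndc15 in 7. For C1qa the proestrus values were 5.38, 4.62, 5.14 and 5.02 and the estrus values 4.32, 4.41, 3.61, 4.15, 4.58 and 4.61, so that 12_5 lay barely above 9_1. For Lefty1 the proestrus mice measured 5.90 to 6.02 and the estrus mice 5.14 to 5.82.

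**Figure D1:**
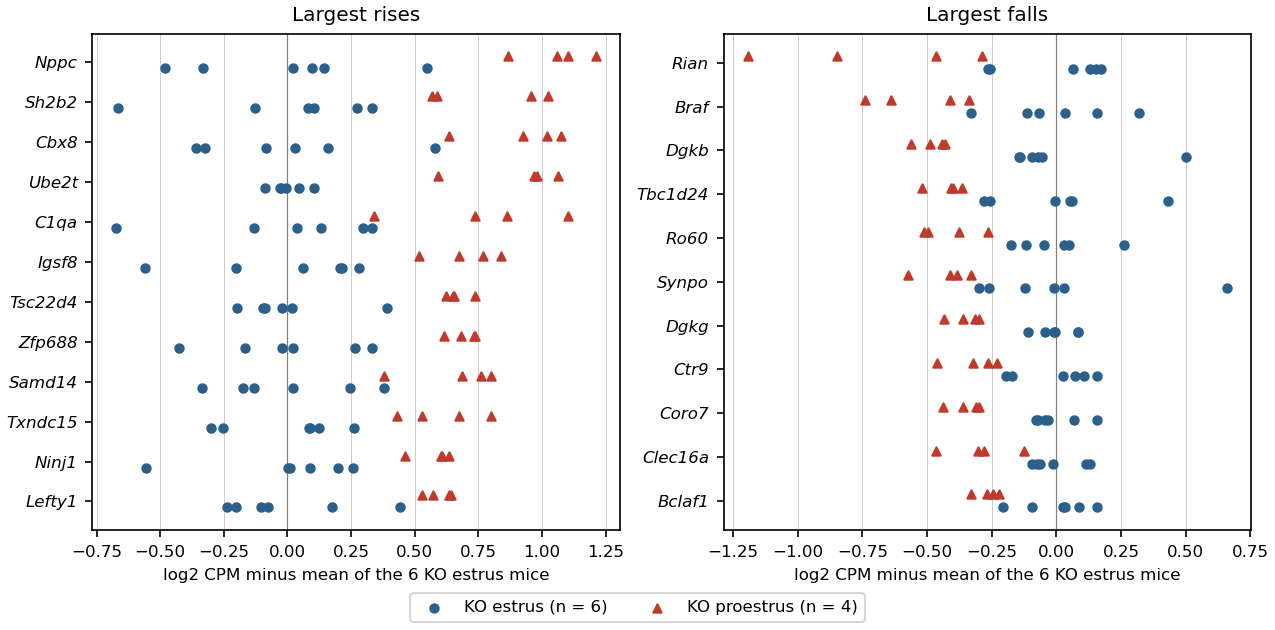
Log2 CPM of the 12 genes with the largest rise (left) and of the genes with the largest falls (right) in each KO mouse, relative to the mean of the 6 estrus mice (x axis, log2). Triangles are the 4 proestrus mice and circles the 6 estrus mice; the genes were chosen to have no overlap between stages, and single estrus mice (8_4 for several rises, 12_1 for several falls) stand away from the rest.

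Rian had the largest fall by the same rule. It is a maternally expressed long non-coding RNA of the imprinted Dlk1-Dio3 region, which hosts small nucleolar RNAs and microRNAs. Its log2 CPM was 6.89, 7.07, 6.17 and 6.51 in proestrus and 7.51, 7.49, 7.53, 7.43, 7.10 and 7.10 in estrus. All 4 proestrus mice were lower, but 12_5 came close to 8_4 and 9_1, and the 2 lowest values were those of 14_1 and 14_2. The log2 fold change was −0.57 ± 0.12 (FDR = 0.017). Exons of 9 other annotated genes overlap Rian, and since the study counted only unambiguous reads from libraries without strand, reads on shared exons would be missing from its count.

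Both diacylglycerol kinases among the falls, enzymes that turn diacylglycerol into phosphatidic acid, were lower in proestrus: Dgkb by −0.41 ± 0.08 (FDR = 0.017) and Dgkg by −0.34 ± 0.08 (FDR = 0.0419). For Dgkb the proestrus mice lay between 7.36 and 7.49, and the estrus mice between 7.78 and 8.42, the top value being that of 12_1. Braf, the kinase that activates MEK, fell by 0.47 on the log2 scale (FDR = 0.0488) with proestrus values of 7.17, 7.24, 6.94 and 6.84 and estrus values from 7.25 to 7.90. Other large falls were those of Tbc1d24, a regulator of synaptic vesicle trafficking (−0.39), Ro60, an RNA-binding protein (−0.36), Synpo, the actin-associated protein of the spine apparatus (−0.35), Ctr9, a subunit of the PAF1 transcription elongation complex (−0.34), Coro7 (−0.33), Clec16a, a regulator of mitophagy (−0.31), and Bclaf1 (−0.26). Their FDRs ran from 0.024 to 0.0488. Without single mice Synpo, Dgkg and Bclaf1 kept their call in 2 of 10 fits, Ctr9 and Coro7 in 3, Braf, Tbc1d24 and Ro60 in 4, Clec16a in 5 and Dgkb in 7.

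Camk2a, the alpha subunit of the calcium/calmodulin-dependent kinase of the postsynaptic density, was lower in proestrus by −0.45 ± 0.11 (FDR = 0.0388). Its call was kept in 4 of the 10 fits without a mouse, and edgeR did not call it (FDR = 0.132). It measured 10.59, 10.55, 10.31 and 10.60 in proestrus and 10.97, 11.18, 11.14, 11.02, 10.60 and 10.80 in estrus, so that 8_4 met the proestrus range. Among the 19 postsynaptic scaffold and CaMKII genes it was the only one called, with 0 higher. The median over that list was −0.08, against −0.001 over all genes tested.

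Of the 82 genes some that fall outside the rule for naming were picked after their values were seen, because of what they encode. They include Nat14 (0.55, FDR = 0.00927) and Lin7b, a scaffold protein of synaptic and epithelial junctions (0.57, FDR = 0.00927), which had the next smallest FDRs. Mpc2, a subunit of the mitochondrial pyruvate carrier, rose by 0.59 (FDR = 0.017), and Cox14 (0.38) and Chchd2 (0.42), both of mitochondria, also rose. Selplg, the P-selectin ligand that microglia express, rose by 0.64 (FDR = 0.0408), and Nkx6-2, a homeobox factor of oligodendrocytes, by 1.02 (FDR = 0.0233). Among the lower genes were Pafah1b1, the lissencephaly gene Lis1 (−0.41, FDR = 0.017), the G protein subunit Gnaq (−0.28, FDR = 0.0466), the clathrin adaptor subunit Ap2b1 (−0.41, FDR = 0.0488) and the kinase Lrrk2 (−0.63, FDR = 0.0408). Nat14 and Cox14 did not overlap between the stages, and the values of the others did. Without single mice Gnaq kept its call in 1 of 10 fits, Lrrk2 in 2, Cox14 and Chchd2 in 3, and Selplg and Ap2b1 in 4. Mpc2, Nkx6-2 and Pafah1b1 kept theirs in 6, Nat14 in 7 and Lin7b in 8.

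Promoters of 4 of these genes are shown, 2 that rose and 2 that fell, to let the base composition at their starts be read; each runs from 250 bases before to 50 bases after the annotated start (RefSeq, GRCm38.p6, printed 5′ to 3′ on the strand of the gene), with CG steps in capitals. Cbx8 is at chr11:119040864-119041163 on the minus strand, Nppc at chr1:86670524-86670823 on the minus strand, Rian at chr12:109603695-109603994 on the plus strand, and Braf at chr6:39725414-39725713 on the minus strand.
Cbx8: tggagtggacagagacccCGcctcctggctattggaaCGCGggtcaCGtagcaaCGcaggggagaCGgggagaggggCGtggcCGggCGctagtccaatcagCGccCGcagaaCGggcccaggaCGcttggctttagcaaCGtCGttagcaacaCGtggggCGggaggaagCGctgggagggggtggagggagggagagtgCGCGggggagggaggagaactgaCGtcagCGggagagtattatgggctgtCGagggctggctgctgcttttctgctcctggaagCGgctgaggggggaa
Nppc: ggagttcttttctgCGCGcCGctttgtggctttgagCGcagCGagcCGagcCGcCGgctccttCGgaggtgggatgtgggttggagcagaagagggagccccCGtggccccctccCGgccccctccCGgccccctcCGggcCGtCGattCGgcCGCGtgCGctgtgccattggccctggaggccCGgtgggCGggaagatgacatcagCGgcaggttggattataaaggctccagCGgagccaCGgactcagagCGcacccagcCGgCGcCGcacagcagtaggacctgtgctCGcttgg
Rian: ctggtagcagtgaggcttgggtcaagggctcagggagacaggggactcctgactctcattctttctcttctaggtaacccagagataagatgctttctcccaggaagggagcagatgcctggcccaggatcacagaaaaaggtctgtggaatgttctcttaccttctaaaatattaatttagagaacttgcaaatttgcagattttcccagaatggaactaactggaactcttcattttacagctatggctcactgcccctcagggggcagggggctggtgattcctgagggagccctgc
Braf: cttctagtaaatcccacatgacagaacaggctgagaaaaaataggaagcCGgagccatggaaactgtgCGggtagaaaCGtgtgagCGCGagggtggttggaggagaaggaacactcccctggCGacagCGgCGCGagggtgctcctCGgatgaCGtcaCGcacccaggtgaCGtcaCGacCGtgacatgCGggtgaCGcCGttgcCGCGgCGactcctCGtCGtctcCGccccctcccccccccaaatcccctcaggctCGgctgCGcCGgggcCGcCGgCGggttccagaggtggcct
The Cbx8, Nppc and Braf windows hold 24, 29 and 30 CG steps and the Rian window 0. Over 11313 tested genes with a RefSeq promoter the median was 20, and 0.486% held 0. The median was 22 for the 41 higher genes with a promoter and 28 for the 17 lower genes, and 39.8% of all these promoters held at least 24. The palindromic estrogen response element, searched as GGTCANNNTGACC on both strands, and the element bound by glucocorticoid and progesterone receptors, searched as GAACANNNTGTTC, were found in the promoters of 0 of these 58 genes, against 0.00884% and 0.0177% of all tested genes with a promoter. These windows are short, and a match or its absence is only a description of the letters.

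The length of the genes moved with the direction. The genes higher in proestrus had a median genomic span of 7.74 kb (range 1.51 to 62.9 kb) and the genes lower in proestrus one of 61.4 kb (26.3 to 816.5 kb), against 20.2 kb over all genes. The median GC content of the longest transcript of each gene was 56.9% in the higher genes, 47.4% in the lower genes and 49.4% over all. With all tested genes divided into 5 groups of equal number by span, 20, 24, 8, 6 and 0 higher genes and 0, 0, 2, 12 and 10 lower genes fell into the groups from shortest to longest. The median KO log2 fold change of all genes went down in the same order, from 0.14, 0.07, −0.01 and −0.07 to −0.09. In WT the shortest group was not the highest, and the medians were −0.09, 0.06, 0.04, −0.01 and −0.07.

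The same property differed between libraries of 1 stage. The median deviation of the shortest group minus that of the longest was 0.03, −0.01, 0.25 and 0.43 (log2) in proestrus (12_4, 12_5, 14_1, 14_2) and −0.06, −0.25, −0.23, 0.08, 0.07 and −0.25 in estrus (12_1, 12_2, 12_3, 2593, 8_4, 9_1). The high values were those of 14_1 and 14_2, while 12_4 and 12_5 lay within the estrus range. Without 14_1 and 14_2, 5 genes were called, 5 higher and 0 lower, 4 of them among the 82. The same measure, taken relative to all 55 libraries, was used as a covariate in the limma model. With it 0 genes were called, and 1879 had an unadjusted p under 0.05. All 82 genes kept their direction, but they had been chosen on these same libraries. The measure comes from the expression values themselves, and the values printed above were highest in proestrus mice, so this fit cannot tell it apart from stage. Both of these fits were chosen after seeing the data, and the part of RNA quality or library preparation in these differences was not tested.

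**Figure D2:**
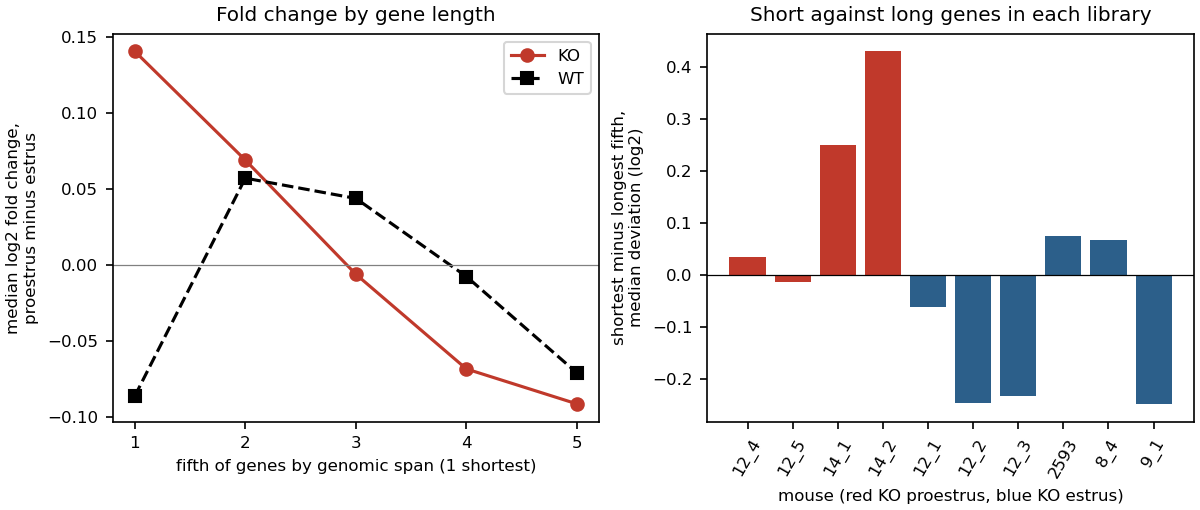
Left, the median log2 fold change from estrus to proestrus (y axis) of all tested genes in 5 groups of genomic span (x axis, 1 shortest), in KO and WT mice. Right, the median deviation of the shortest minus the longest group in each KO library (y axis, log2, relative to the 10 libraries), with proestrus in red and estrus in blue; 14_1 and 14_2 stand highest at 0.25 and 0.43.

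Genes of energy metabolism and of protein synthesis had mostly positive differences that did not pass the FDR threshold gene by gene. All 13 mRNAs encoded by the mitochondrial genome were higher in KO proestrus, with a median log2 fold change of 0.53 and a range of 0.43 to 0.87. None was called, and 7 of 13 had an unadjusted p under 0.05, against 19.0% of all genes in either direction. The mean log2 CPM of the 13 was 8.35, 7.60, 8.86 and 8.32 in proestrus and 8.23, 8.14, 6.86, 8.62, 7.66 and 7.44 in estrus. The groups overlapped, with 12_5 lowest in proestrus and 12_3 far lowest in estrus, and without any 1 mouse the median ran from 0.25 to 0.89. For mt-Cytb, which encodes cytochrome b of complex III, the difference was 0.57 ± 0.20 (FDR = 0.117).

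Of 81 respiratory chain subunits encoded in the nucleus, 76 had a positive difference and 45 an unadjusted p under 0.05 in that direction (median 0.25, 0 called). Their mean log2 CPM was 7.77, 7.67, 7.82 and 8.13 in proestrus and 7.56, 7.49, 7.49, 7.62, 7.66 and 7.54 in estrus, and all 4 proestrus mice were above all 6 estrus mice, with 12_5 close to 8_4. Atp5d, a subunit of ATP synthase, measured 9.30 to 9.81 in proestrus and 8.68 to 9.33 in estrus (0.47 ± 0.12, FDR = 0.0543). Ndufb6, a subunit of complex I, measured 7.03 to 7.65 against 6.52 to 6.97 (0.45 ± 0.12, FDR = 0.0547).

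Of 82 cytosolic ribosomal protein genes, 80 had a positive difference and 34 an unadjusted p under 0.05 in that direction (median 0.23, 0 called). Over all genes tested the median was −0.001, and 19.0% had an unadjusted p under 0.05 in either direction. Members of a list were measured in the same mice, so such counts are not counts of independent observations. The list level was 7.63, 7.64, 7.82 and 8.13 in proestrus and 7.43 to 7.57 in estrus. Here too 14_2 was highest, and 12_4 and 12_5 lay just above the highest estrus mouse. The 13 snRNP core proteins of the spliceosome had 13 positive differences (median 0.25, 0 called, 7 with an unadjusted p under 0.05), and the 37 proteasome subunits 32 (median 0.11, 0 called). Without 14_1 and 14_2 the medians were 0.36 for the mitochondrial mRNAs, 0.17 for the nuclear respiratory chain, 0.14 for the ribosomal proteins and 0.16 for the snRNP proteins. With the short minus long gene value as a covariate they were 0.23, 0.01, −0.01 and 0.01. That value is computed from the expression of the shortest and longest genes, which can include members of these lists. It is also not independent of stage, so the medians of that fit cannot tell gene length apart from stage.

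Synaptic and hormone-related lists held no gene called higher in proestrus. Of 18 AMPA receptor subunits and auxiliary proteins, 0 were called (median −0.04). The 2 with the smallest p were Grip1, a scaffold that binds AMPA receptors (−0.36 ± 0.12, FDR = 0.101), and Cacng7, a transmembrane AMPA receptor regulatory protein (−0.57 ± 0.19, FDR = 0.109), which measured 1.01 to 1.93 in proestrus and 1.66 to 2.77 in estrus. Cnih2, the paralog of Cnih3, picked after its value was seen, showed 0.45 (FDR = 0.119). Of 6 NMDA receptor subunits 0 were called (median 0.08) and 4 were positive, with the smallest p for Grin2c (0.72, FDR = 0.105). Of 12 GABA-A receptor subunits 0 were called (median −0.06). Gabrb2 measured 2.99 to 4.12 in proestrus and 4.17 to 5.16 in estrus and did not pass (−0.62 ± 0.26, FDR = 0.191). Its values did not overlap between the stages, which held for 4.44% of all genes tested. Of 28 potassium channel genes 0 were called (median −0.02).

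Among 14 steroid hormone receptors and coregulators 0 were called, with 4 of 14 positive and a median of −0.13. The smallest p values were those of Nr3c2, the mineralocorticoid receptor (−0.32 ± 0.11, FDR = 0.107), and Ncoa2, a coactivator of steroid receptors (−0.33 ± 0.12, FDR = 0.126). None of 12 estrogen-responsive genes was called (median 0.01). Igfbp4, an insulin-like growth factor binding protein, measured 6.62 to 6.75 in proestrus and 6.08 to 6.64 in estrus (0.33 ± 0.11, FDR = 0.113). None of 15 glucocorticoid-responsive genes was called (median 0.25), Tsc22d3 showing 0.39 ± 0.14 (FDR = 0.131) and Fkbp5 0.21 ± 0.09 (FDR = 0.209). In the neurosteroid synthesis list 0 of 8 were called (median 0.03), in the immediate early genes 0 of 20 (median −0.17), in the circadian clock 0 of 16 (median −0.11) and in cholesterol and fatty acid synthesis 0 of 26 (median −0.08). Hsd3b2, Cyp17a1, Cyp19a1, Akr1c14 and Sts of the neurosteroid list were not among the genes tested. The same held for Esr2 of the receptors, for Greb1, Tff1 and Krt19 of the estrogen-responsive genes and for Lcn2 of the glucocorticoid-responsive genes.

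The cell type lists held 2 genes called. C1qa was the 1 of 10 microglia markers called, 9 of the 10 were positive, and the list median was 0.28. Bsg, which encodes basigin, abundant in brain endothelium and made by many cells, was the 1 of 10 endothelial markers, at 8.80, 8.46, 8.74 and 8.60 in proestrus and 8.04 to 8.33 in estrus (0.45 ± 0.10, FDR = 0.0273). In bulk tissue, more cells of a type and more RNA per cell cannot be told apart. None of 10 astrocyte markers (median −0.01), 15 oligodendrocyte markers (0.15) or 10 oligodendrocyte precursor markers (0.16) was called. Of 12 interneuron markers 0 were called (median 0.10). Pvalb, the calcium buffer of fast-spiking interneurons, measured 6.29, 6.26, 6.23 and 6.66 in proestrus and 5.51 to 6.14 in estrus (0.45 ± 0.12, FDR = 0.0505). Its values did not overlap between the stages, nor did those of Cort, which encodes cortistatin (0.83 ± 0.24, FDR = 0.0709). Such a lack of overlap held for 4.44% of all genes tested. The other lists of hippocampal neurons had medians of 0.01 (CA1), 0.08 (CA3 and CA2) and −0.10 (dentate granule cells) with 0 called.

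The remaining lists held 1 called gene, Rian, among 10 nuclear-retained long non-coding RNAs (median −0.15). None was called among 8 meningeal fibroblast markers (median 0.34), 7 ependymal markers (0.12), 5 blood genes (0.43), 3 pituitary genes (1.17) or 10 thalamic markers (−0.04). The same held for 17 Atf4 targets (median 0.03), 18 endoplasmic reticulum chaperones (0.08), 11 heat shock proteins (−0.01) and 15 interferon response genes (0.34). Across all 37 lists, 4 of 621 different genes tested were called in KO (0.644%), near the 0.507% of all genes: C1qa, Bsg, Camk2a and Rian.

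**Figure D3:**
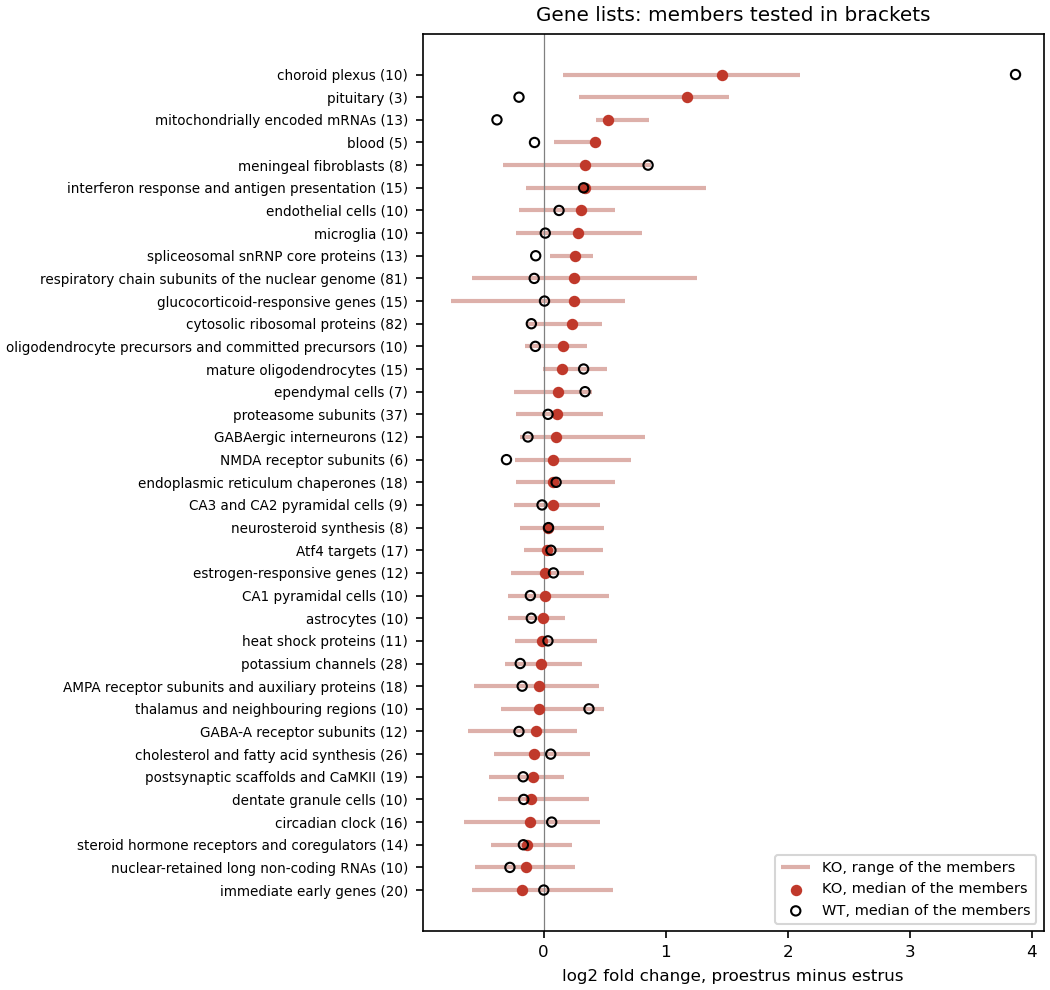
Median (filled circles) and range (bars) of the log2 fold change from estrus to proestrus in KO mice over the tested members of each of 37 gene lists, with the WT median as open circles. Most KO medians lie near 0, and the choroid plexus list is highest in both genotypes, at 1.46 in KO and 3.87 in WT.

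Choroid plexus transcripts varied widely between single mice of both stages. The mean log2 CPM of the 10 markers was 4.45, 1.83, 0.08 and 0.12 in proestrus and 0.84, 0.997, −0.997, −0.49, 1.82 and 4.15 in estrus. Mouse 12_4 in proestrus and mouse 9_1 in estrus stood above the others. The list median was 1.46 with 0 of 10 called, and without 12_4 it was −0.10. Otx2, a homeobox factor that the choroid plexus expresses, measured 3.19, 1.31, −0.36 and −2.44 in proestrus and −2.54 to 3.31 in estrus (1.22 ± 0.90, FDR = 0.459). Prlr, the prolactin receptor, which is also high in choroid plexus, measured 1.44 to 4.72 and 1.09 to 4.31 (0.72 ± 0.53, FDR = 0.462). In WT the same list had 9 of 10 members called, all higher in proestrus. Without 12_4 and 9_1, a choice made after seeing the data, 5 genes were called between the KO stages, 4 of them among the 82, and with the choroid plexus level as a covariate 72 were called, 61 of them among the 82.

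Transcripts of the pituitary hormones prolactin and growth hormone were detected in every library compared. Cga, Lhb, Fshb, Tshb and Pou1f1 of the pituitary list were not among the genes tested. Prl, which encodes prolactin, measured 5.20, 6.14, 7.13 and 5.09 in proestrus and 1.99, 5.78, 4.34, 5.38, 5.11 and 4.57 in estrus. The difference was 1.17 ± 0.71 (FDR = 0.36), and 12_1 lay far below the other 9 mice. Gh, growth hormone, showed the same low value in 12_1, 0.40 against 3.63 to 6.59 in the others. Other genes named in the study, for differences between stages or between the sexes, had small or widely spread values: Gal3st1, a sulfotransferase of myelin lipid synthesis (0.20, FDR = 0.56), Srd5a3, a steroid 5-alpha-reductase family member (−0.18, FDR = 0.768), Gpr17 of committed oligodendrocyte precursors (−0.12, FDR = 0.763), Plin4 (0.66, FDR = 0.468), Depp1 (−0.76, FDR = 0.423) and the vasopressin receptor Avpr1b (−0.43, FDR = 0.574).

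**Figure D4:**
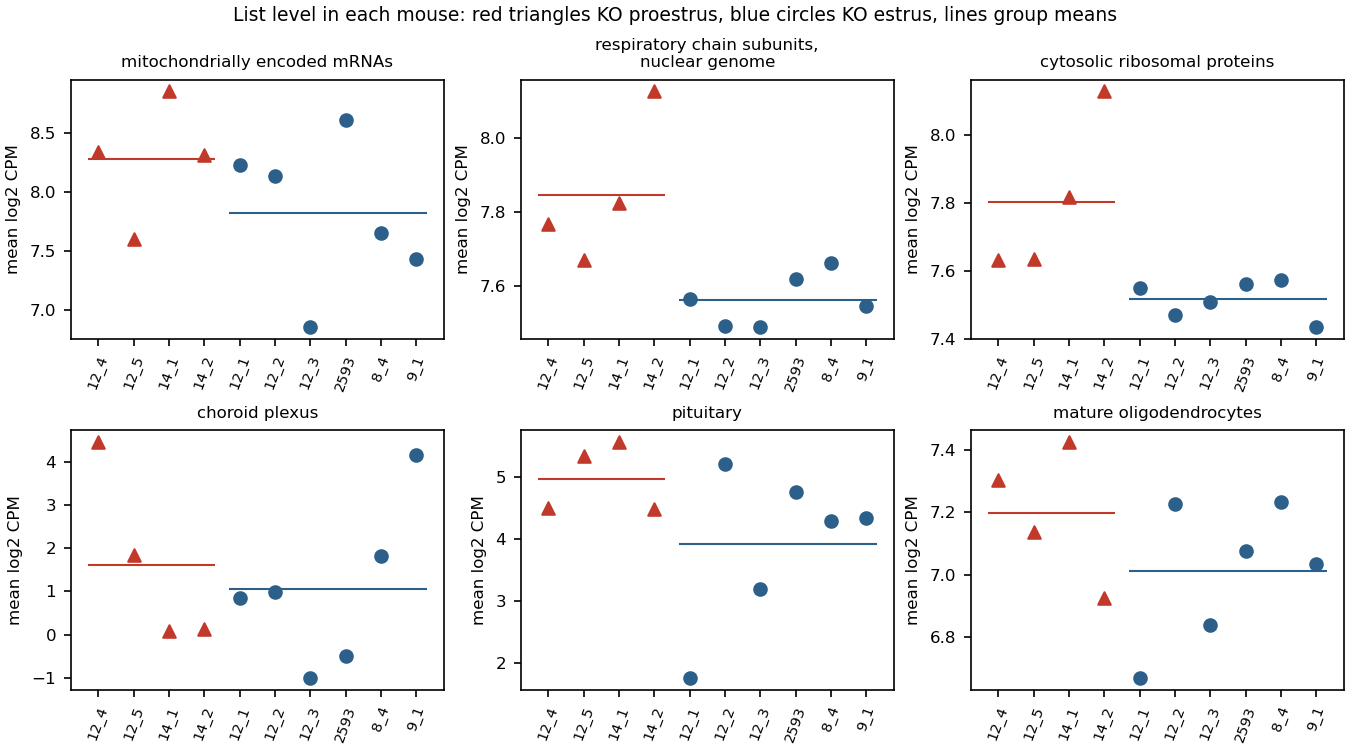
Mean log2 CPM (y axis) of 6 gene lists in each KO mouse (x axis), triangles for the 4 proestrus and circles for the 6 estrus mice, with lines at the group means. Nuclear respiratory chain and ribosomal protein levels are highest in 14_2, while 12_4 and 9_1 stand apart for choroid plexus and 12_1 for pituitary transcripts.

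In WT mice the same model called 1102 genes between proestrus and estrus (6.82%), 849 higher (5.25%) and 253 lower (1.56%), with medians of 0.58 and −0.34. That count also rested on the weights: it was 0 by limma without the quality weights (1912 with an unadjusted p under 0.05), 15 by edgeR and 74 by DESeq2. Of the 82 KO genes 26 were also called in WT, 21 higher and 5 lower, which is 31.7% of the KO genes and 2.36% of the WT genes. All 26 had the same direction in both genotypes. The 82 genes were chosen on their KO values. Of them 77 had the same sign in WT (93.9%, against 55.9% of all genes tested), and their WT medians were 0.27 for the higher genes and −0.17 for the lower genes. The reverse choice gave the same pattern: of the 1102 genes called in WT, 777 had the same sign in KO (70.5%), with KO medians of 0.15 for the genes higher in WT and −0.09 for those lower.

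Among the genes called in both genotypes with the smallest p were Tsc22d4 (0.66 in KO, 0.51 in WT), Zfp688 (0.66 and 0.50), the ESCRT-I subunit Mvb12a (0.52 and 0.48), the chromatin remodeling subunit Vps72 (0.52 and 0.61) and the deubiquitinase Josd2 (0.58 and 0.61). Their interactions had FDRs from 0.649 to 0.948. Without single mice Josd2 kept its KO call in 3 of 10 fits, Vps72 in 4, Mvb12a in 6, Tsc22d4 in 7 and Zfp688 in 9. Vps72 measured 6.02 to 6.08 in KO proestrus and 5.26 to 5.96 in KO estrus, the top estrus value being that of 8_4. Cbx8 was also called in WT (0.50 ± 0.12, FDR = 0.0103), and Samd14 was higher in WT by 0.73 ± 0.14 (FDR = 0.00107).

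**Figure D5:**
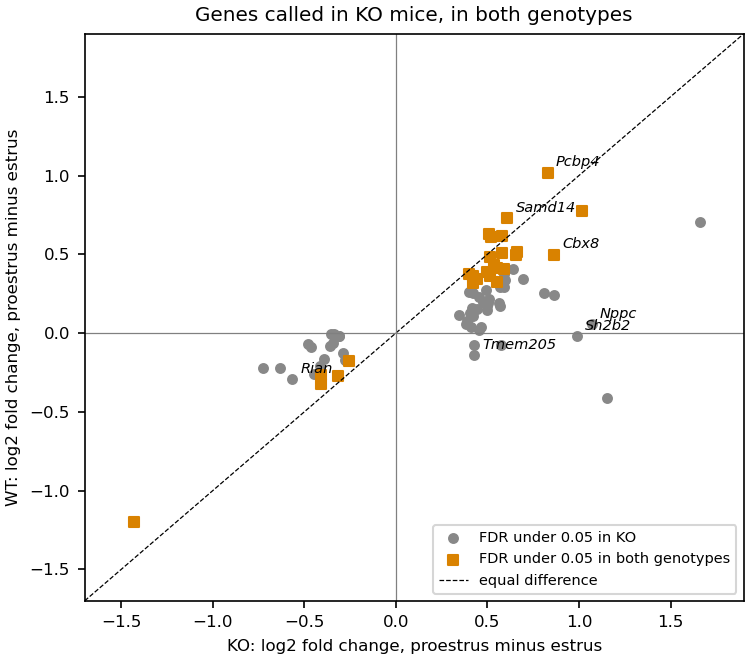
Log2 fold change from estrus to proestrus of the 82 genes called in KO mice, in KO (x axis) and in WT (y axis); squares are the 26 genes called in both genotypes and the dashed line marks equal differences. The genes were selected on the KO values, 77 of 82 have the same sign in both genotypes, and Nppc and Sh2b2 lie near 0 in WT.

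Whether the difference between the stages depended on genotype was tested by the interaction of genotype and stage. In the study, WT mice came partly from matings of WT mice and partly from Cnih3 matings, and KO mice only from Cnih3 matings. Genotype is thus not fully separate from breeding, whose part was not tested here. The authors saw no clear axis of parental genotype in a principal component analysis of the WT mice. Limma called 0 of 16168 genes (0.0%), with 2480 at an unadjusted p under 0.05 (15.3%) and a smallest FDR of 0.0702, and edgeR and DESeq2 also called 0 (891 and 927 with an unadjusted p under 0.05). The median standard error of the interaction was 0.19 on the log2 scale, so small differences between the genotypes were not detectable with these numbers of mice. Leaving out 1 of the 22 KO and WT mice gave 0 in 17 fits and 1 to 140 genes in 5: 140 without WT mouse 5_4, 99 without KO mouse 2593, 91 without WT mouse 2_1, 15 without WT mouse 8_2 and 1 without WT mouse 5_3. Nppc and Sh2b2, which did not pass in WT (0.06 and −0.02), had interactions of 1.01 (FDR = 0.099) and 1.01 (FDR = 0.117).

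The 6 genes with the smallest interaction p all had an FDR of 0.0702. Grin2c, an NMDA receptor subunit, measured 2.07, 1.86, 1.23 and 1.15 in KO proestrus and 0.44, 1.74, 0.83, 0.65, 0.50 and 1.60 in KO estrus. Its difference was 0.72 ± 0.24 in KO (FDR = 0.105) and −0.86 ± 0.27 in WT (FDR = 0.0399). Sorbs3, the adhesion adaptor vinexin, was −0.28 in KO and 0.60 in WT, Eid2b −0.52 and 1.24, Fam13c −0.43 and 0.27, and Mapkap1, the mTORC2 subunit Sin1, −0.16 and 0.57. Tmem205, a membrane protein, was the 1 of the 6 that was called in KO, at 5.48 to 5.71 in proestrus and 4.94 to 5.31 in estrus (0.43 ± 0.09, FDR = 0.0204), with −0.14 in WT. The mitochondrial mRNAs had a median of 0.53 in KO and −0.38 in WT, and the ribosomal proteins 0.23 and −0.10, with 0 interactions called in either list.

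Age and the mouse numbers were examined as further properties that differ between the stages. With age in weeks as a covariate 629 genes were called, 342 higher and 287 lower, with 81 of the 82 among them. Without 8_4 and 9_1, the 2 estrus mice of 20 weeks or more, 534 were called, and all 82 remained. Another fit kept, of the 10 mice, only the 5 whose number starts with 12 (2 proestrus and 3 estrus mice). The libraries of all other groups stayed in that fit. It called 172 genes, with 55 of the 82 among them and all 82 of the same direction. These 5 mice were among those on which the 82 were chosen. Treating mice that share the leading digits of their number as a random block gave 80. The correlation fitted within these blocks was −0.002, so that fit was nearly the main model again. The labels do not say what the digits stand for. A fit of the 10 libraries alone called 10 genes and a fit of the 28 KO libraries 3, with 3084 and 2978 genes at an unadjusted p under 0.05.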

How the data were processed

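Dorsal hippocampus of 55 mice in 10 groups of genotype and sex or estrous stage was sequenced as unstranded cDNA, 1 library per mouse. Per the labels, the authors aligned reads to GRCm38 with STAR 2.7.9a and deposited gene counts from featureCounts 2.0.3, not normalized. The authors also deposited log2 CPM values normalized across libraries; these were matched to the log2 CPM computed here to within 4.97e-14 over 16164 genes. In the counts 1 column belongs to no sample and was not used, 287 lines that repeat a gene were dropped and 5 ribosomal RNA genes were left out. Library totals over all samples ran from 25881295 to 63547098 counts.

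Genes with a CPM above 1 in at least 10 libraries were kept (16168), and groups were compared with limma 3.58.1 (TMM, voom with sample quality weights, all 55 libraries) in R 4.3.3, with Benjamini-Hochberg FDR under 0.05 over all genes tested. Alternatives used edgeR 4.0.16, DESeq2 1.42.0, other scaling, filters, covariates and subsets of mice. Fits with the short minus long gene value as a covariate, without 14_1 and 14_2, and without 12_4 and 9_1 were chosen after seeing the data. Fitted differences are weighted by library and so depart from plain differences of group means. The code was tested on simulated data. Gene spans came from GENCODE M21 (GRCm38), and 99.9% of tested genes had a model.

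The comparison, the gene lists and the rules were chosen with earlier results of these data known. Named were the 12 largest rises and falls among called genes with no overlap between stages and a mean log2 CPM above 1, the called members of each list (at most 4, or the 2 with the smallest p where none was called), 9 genes the study names for stages or sexes and Cnih3, the 6 smallest interaction p, and the 6 genes called in both genotypes with the smallest p. Genes without an official symbol were counted but not named. Of the genes the rule names, 1 is not reported here. Genes outside this rule are said to be so.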

Additional observations from a re-analysis of the deposited data

Results flagged for a closer look

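Among 242 groups of log2 CPM values or list levels examined, 14 held 1 mouse whose gap to its nearest neighbor, as a share of the whole range of the group, passed Dixon's 95% critical value (0.829 for 4 mice, 0.625 for 6). Chance gives about 1 in 20 groups, so 14 of 242 is close to that rate. In estrus, mouse 12_1 was highest for Dgkb (0.863), Synpo (0.657) and Hmgcs1 (0.845), and lowest for Gh (0.642) and Cort (0.72). Mouse 2593 was lowest for Ninj1 (0.685) and Srd5a3 (0.706) and highest for Srd5a1 (0.643). Mouse 8_4 was highest for Tsc22d4 (0.635) and Vps72 (0.634), and mouse 12_3 lowest for Dnajb11 (0.837). In proestrus, mouse 14_2 was lowest for Ninj1 (0.832) and highest for Pvalb (0.852), and mouse 14_1 was lowest for Nrip1 (0.911).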

How the results depend on the processing

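The 82 genes called between the KO stages kept their direction in every alternative. That was largely set by choosing them on these same libraries, which each alternative reused in whole or in part. The number of genes called did not hold. It was 4 with edgeR, 5 without quality weights, 15 without the filter on low counts and 629 with age as a covariate. It was 10 in the 10 libraries alone, 3 in the 28 KO libraries and 534 without the estrus mice of 20 weeks or more. With only the mice numbered 12 kept of the 10, beside the libraries of all other groups, it was 172. In the fits chosen after seeing the data it was 0 with the short minus long gene covariate (1879 at an unadjusted p under 0.05), 5 without 14_1 and 14_2 and 5 without 12_4 and 9_1. It was 59 with DESeq2, which gave no FDR for 3450 genes, and 75 with DESeq2 size factors. Leaving out single mice gave 3 (12_3 or 12_4) to 306 (8_4) genes. The WT count of 1102 was 15 with edgeR, 74 with DESeq2, 0 without quality weights, 43 without the filter and 561 to 1686 without single mice. The interaction count of 0 ran from 0 to 140 without single mice. The age difference of −3.56 weeks ran from −4.38 to −2.84 without single mice, and in 9 of 10 of these its exact permutation p was 0.0794 to 0.0952. The cause of these changes was not tested. Of 1200 alternative fits of 48 called named genes, 541 kept the call. No paired analysis was possible because the replicate numbers only follow the order of the samples and link no mouse of one stage to a mouse of the other. With 4 and 6 mice and a median standard error of 0.14 (log2), small differences were not detectable.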
